A study of Homo sapiens with 60 samples.

Results

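Cinnamon bark (Cinnamomi Cortex) was given to SW1783 cells as a hot-water extract at 500 µg/mL for 24 h, and the 3 libraries of these cells were compared with the 3 libraries of cells given vehicle. The members were the libraries whose titles name the high dose of Cinnamomi Cortex or the vehicle, 6 of the 60 libraries of the series. SW1783 is an established human astrocytoma line, and the study profiled its transcriptome after exposure to tonifying herbal medicines. The groups used here were Cinnamon bark at 500, 100 and 20 µg/mL (3 libraries each), 5 other extracts at 500 µg/mL (14 libraries of Cnidium, Rehmannia, Astragalus, Sagunja-tang and Samul-tang) and vehicle (3 libraries). The labels give 0.1% DMSO for the vehicle and no solvent level for the extracts, and the series text gives 2% DMSO for the vehicle control. The vehicle libraries also carry another set of sample codes than the Cinnamon bark libraries. For this reason the counts of the main lists are set beside Cinnamon bark at 20 µg/mL, which shares the code set, and beside the other extracts. No label says whether replicates were separate cultures, so the p-values measure the spread between these libraries, which may be technical.

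Cells that meet electrophilic compounds, among them the aldehydes for which cinnamon bark is known, release the transcription factor NRF2 from its sensor KEAP1, and NRF2 then raises enzymes that reduce quinones, make glutathione and supply NADPH. Heme oxygenase opens the heme ring and frees iron, which ferritin stores. Metallothioneins are small cysteine-rich proteins that bind zinc and copper and are induced by the zinc sensor MTF1. Sterol-regulated genes follow SREBP, a factor held in the endoplasmic reticulum by INSIG proteins when sterols are plentiful.

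The 6 libraries held between 23697686 and 26969606 assigned fragments, and the mitochondrial share of counts was 5.34%, 7.28% and 6.74% in the Cinnamon bark libraries, against 7.43%, 7.13% and 7.20% in the vehicle libraries. Replicates of the extract lay farther apart than those of the vehicle, with a median SD of 0.079 against 0.046 in log2(CPM + 1) over 11251 genes. Among the Cinnamon bark libraries, a gene's deviation from the group mean followed its GC content, with Spearman correlations across 11228 genes of 0.53, -0.04 and -0.60 in replicates 1, 2 and 3, and these replicates are therefore named wherever a value rests on 1 of them. Of 14 astrocyte and glioma markers, 7 reached 1 CPM in all 6 libraries, while AQP4 had no count and GFAP had 0, 0 and 0 counts in Cinnamon bark libraries and 2, 1 and 1 counts in vehicle libraries. All 12 fibroblast and smooth muscle markers were present. The defining astrocyte markers AQP4 and GFAP were thus absent or nearly so in this astrocytoma line. Of 8 immune markers AIF1, CD3E and TYROBP had no count in any library, while CD68, PTPRC and CSF1R reached 1 CPM in all 6.

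A large share of the transcriptome differed by small amounts between Cinnamon bark at 500 µg/mL and vehicle. A gene was called at an adjusted p under 0.05 in edgeR's quasi-likelihood test with Benjamini-Hochberg adjustment over all 15683 genes tested. The calls numbered 6094 (38.9%), of which 3175 were higher (20.2%) and 2919 lower (18.6%) in Cinnamon bark cells, and 7419 genes had an unadjusted p under 0.05. The median absolute log2 fold change of the called genes was 0.33, and the median over all genes was 0.01. Only 392 called genes changed at least 2-fold, 169 higher and 223 lower, and 40 changed at least 4-fold. In 7896 genes (50.3%) the 3 libraries of one group lay outside the range of the other. Against Cinnamon bark at 20 µg/mL, 4547 of 15767 genes were called (28.8%), 2170 higher (13.8%) and 2377 lower (15.1%). Against the mean of the 5 other extracts at 500 µg/mL, 6852 of 16901 genes were called (40.5%), 3363 higher (19.9%) and 3489 lower (20.6%). These 3 comparisons share the 3 libraries of Cinnamon bark at 500 µg/mL, so their values are given side by side and not as independent evidence. Levels below are counts of a gene relative to the counts of its library on the usual CPM scale, adjusted by the trimmed mean of M-values (TMM), changes are log2 fold changes ± SE, and library values run from replicate 1 to replicate 3.

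**Figure D1:**
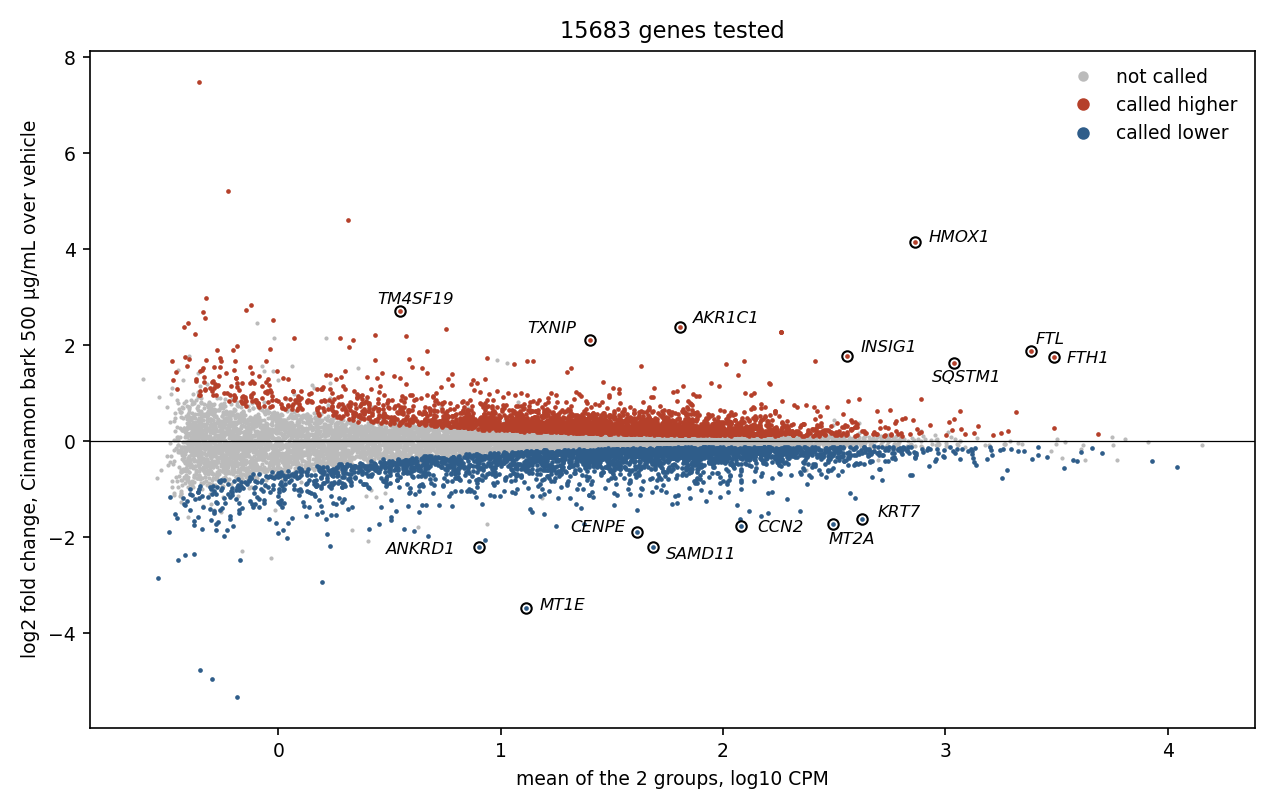
Log2 fold change of Cinnamon bark 500 µg/mL over vehicle (vertical axis) against the mean CPM of the 2 groups (horizontal axis, log10) for the 15683 genes tested, with called genes in colour and 15 genes circled. HMOX1 stands at 4.14 at a high expression level, and MT1E at -3.47 is the lowest of the circled genes.

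**Figure D2:**
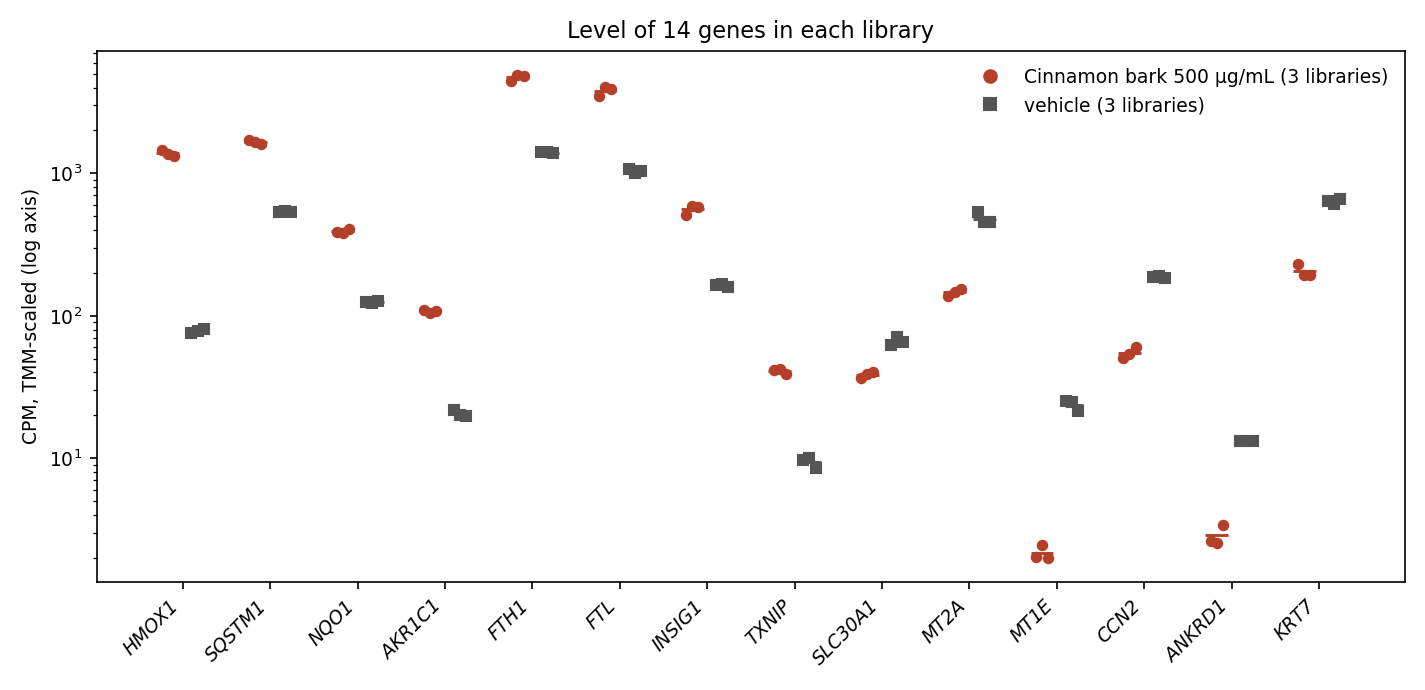
CPM on a log axis in each of the 3 Cinnamon bark 500 µg/mL libraries (circles) and the 3 vehicle libraries (squares) for 14 genes, with a bar at each group mean. The groups do not overlap for any of the 14 genes, and the spread within a group is small beside the distance between groups.

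HMOX1 showed the largest rise among genes that reached 5 CPM. Heme oxygenase 1 (chr22:35380361-35394214, GRCh38) cuts heme into biliverdin, carbon monoxide and iron. Its level was 1458, 1365 and 1330 CPM in Cinnamon bark cells, against 76.0, 78.6 and 80.2 CPM in vehicle cells. Every extract library lay over 10 times above every vehicle library, and the change was 4.14 ± 0.05 (17.7-fold, adjusted p = 3.1e-19). It was of the same size against 20 µg/mL (4.09) and against the other extracts (4.17), in whose 14 libraries HMOX1 lay between 61.1 and 102 CPM. The constitutive enzyme HMOX2 had 44.2, 42.9 and 42.5 CPM in Cinnamon bark cells and 38.2, 41.1 and 40.3 CPM in vehicle cells and was not called (0.12 ± 0.05, adjusted p = 0.10). Both biliverdin reductases, which turn the product of heme cleavage into bilirubin, were higher, BLVRB by 0.79 ± 0.06 and BLVRA by 0.65 ± 0.06.

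Transcripts of part of the heme synthesis pathway rose. Of 8 heme synthesis enzymes 4 were called higher and none lower, with a median of 0.26. ALAS1, the rate-limiting first enzyme of the pathway, had 135, 130 and 130 CPM in Cinnamon bark cells, against 61.7, 55.9 and 61.1 CPM in vehicle cells. These values did not overlap and gave 1.14 ± 0.05 (adjusted p = 2.1e-11), with 1.03 against 20 µg/mL. FECH, which inserts iron into protoporphyrin, and CPOX, which makes its precursor, were higher by 0.38 ± 0.06 and 0.36 ± 0.05. ALAD, UROS and UROD, steps in between, lay from -0.05 to 0.13 and were not called. Of 8 heme and porphyrin transporters 6 were called higher, led by SLC48A1, which carries heme out of endolysosomes (0.83 ± 0.07), FLVCR2 (0.74 ± 0.19) and the porphyrin exporter ABCG2 (0.59 ± 0.06). The calls of ABCB6 and SLC25A38 in this list were lost under 6 and 9 of 14 alternative settings.

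Both ferritin chains rose, and the iron importers rose slightly. FTL, the light chain, had 3503, 4035 and 3909 CPM in Cinnamon bark cells, against 1081, 1005 and 1042 CPM in vehicle cells. FTH1, the heavy chain that oxidises iron on entry, had 4462, 4913 and 4834 CPM in Cinnamon bark cells, against 1411, 1406 and 1383 CPM in vehicle cells. Replicate 1 was the lowest of the extract libraries in both chains, yet it stood over 3 times above each vehicle library. The changes were 1.87 ± 0.05 and 1.76 ± 0.04. Ferritin has many processed pseudogenes that can share its reads, so these levels are uncertain in that respect. TFRC, the transferrin receptor, had 1297, 1265 and 1303 CPM in Cinnamon bark cells and 1054, 1090 and 1072 CPM in vehicle cells (0.26 ± 0.04, adjusted p = 3.4e-05). It was not called against 20 µg/mL (0.12). IREB2, an iron sensor that stabilises the TFRC transcript when iron is scarce, was lower by 0.19 ± 0.06 on the log2 scale, a call lost under 3 of 14 settings. The only known cellular iron exporter, SLC40A1, had at most 1 count in any of the 6 libraries.

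The NRF2 targets rose over the whole list of quinone and carbonyl reducing enzymes, while NRF2 itself was not called. NFE2L2, the gene of NRF2, had 70.9, 79.8 and 82.9 CPM in Cinnamon bark cells and 76.2, 77.1 and 75.1 CPM in vehicle cells, overlapping groups with a change of 0.03 ± 0.06 (adjusted p = 0.69). Its partner MAFG (0.41 ± 0.07), its competitor BACH1 (0.37 ± 0.06), MAFK (0.28 ± 0.07) and its sensor KEAP1 (0.27 ± 0.08) were called higher, and MAFF was lower (-0.23 ± 0.06); the KEAP1 call was lost under 2 of 14 settings. All 10 quinone and carbonyl reducing enzymes were called higher, with a median of 0.92. AKR1C1, an aldo-keto reductase, had 109, 105 and 108 CPM in Cinnamon bark cells, against 21.7, 20.2 and 19.9 CPM in vehicle cells. NQO1, which reduces quinones by 2 electrons, had 387, 383 and 409 CPM in Cinnamon bark cells, against 124, 123 and 126 CPM in vehicle cells. Neither gene's groups came near each other, and the changes were 2.38 ± 0.05 and 1.66 ± 0.04. AKR1C2, AKR1C3 and AKR1B10 followed at 1.68 ± 0.08, 1.66 ± 0.09 and 1.13 ± 0.11. AKR1C1, AKR1C2 and AKR1C3 are near-identical and may share reads. Against the other extracts the 10 enzymes had a median of 0.62, and 9 were called higher.

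Glutathione genes of cystine uptake, synthesis and recycling rose, while the peroxidase GPX1 was lower and GPX4 was not called, with 11 of 14 called higher, 1 lower and a median of 0.60. SLC7A11, the cystine carrier, had 218, 209 and 246 CPM in Cinnamon bark cells, against 95.7, 97.3 and 99.0 CPM in vehicle cells (1.21 ± 0.06). GCLM, the regulatory subunit of the enzyme that commits cysteine to glutathione, had 176, 154 and 172 CPM in Cinnamon bark cells, against 82.4, 85.2 and 81.2 CPM in vehicle cells (1.01 ± 0.05). Both sets of values stood apart. The catalytic subunit GCLC rose by 0.62 ± 0.05, the reductase GSR by 0.61 ± 0.05 and MGST1, a membrane glutathione transferase, by 0.85 ± 0.07. GPX1, the cytosolic peroxidase that spends glutathione, went the other way, with 149, 147 and 150 CPM in Cinnamon bark cells and 215, 209 and 202 CPM in vehicle cells (-0.49 ± 0.04). GPX1 was -0.26 against 20 µg/mL and, against the other extracts, -0.06 and not called. GPX4, which reduces lipid peroxides, was not called (0.01 ± 0.04).

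Of 9 thioredoxin and peroxiredoxin genes 5 were called higher, those of the cytosolic arm by the most: SRXN1, which repairs overoxidised peroxiredoxin, by 1.01 ± 0.05, TXNRD1 by 0.87 ± 0.05, TXN by 0.76 ± 0.06 and PRDX1 by 0.62 ± 0.05. The remaining called member, the mitochondrial PRDX3, rose by less, from 0.11 to 0.21 when a library was left out. Its call was lost under 3 of 14 settings. The mitochondrial TXNRD2 and TXN2 lay at -0.08 ± 0.08 and -0.03 ± 0.05 and were not called. Of 7 NADPH-supplying enzymes 6 were called higher, with a median of 0.49. ME1, the cytosolic malic enzyme, had 22.4, 23.1 and 24.7 CPM in Cinnamon bark cells, against 11.6, 12.4 and 12.2 CPM in vehicle cells (0.96 ± 0.07). The pentose phosphate enzymes PGD, TALDO1 and TKT rose by 0.72, 0.53 and 0.48, each with an SE of 0.04. Among 14 other classical NRF2 targets 9 were called higher. SQSTM1, which carries ubiquitinated cargo to autophagosomes and binds KEAP1, had 1713, 1665 and 1599 CPM in Cinnamon bark cells, against 531, 541 and 537 CPM in vehicle cells (1.63 ± 0.04). The drug exporters ABCC1, ABCC2, ABCC3 and ABCC4 lay between -0.01 and 0.08 and were not called.

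Promoters of 3 risers are shown for their match to the antioxidant response element, the site of NRF2, searched as TGACNNNGC on both strands in the 250 bases before the start. The stretches lie at chr1:93909444-93909476 (minus strand), chr12:104215668-104215700 (plus) and chr6:83431168-83431200 (minus) of RefSeq GRCh38.p14, and capitals mark the match.
GCLM: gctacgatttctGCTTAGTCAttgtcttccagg
TXNRD1: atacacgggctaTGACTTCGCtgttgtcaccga
ME1: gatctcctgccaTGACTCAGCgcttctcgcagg
The GCLM match reads on the opposite strand. The letters occurred in 10.9% of 35116 promoters. They were found in 1 of 8 quinone and carbonyl enzymes with a promoter entry, 4 of 12 glutathione genes, 1 of 6 thioredoxin genes, 2 of 6 NADPH genes and 1 of 11 other classical targets, the last being ABCC4, which was not called.

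The metallothioneins fell together. MT1E had 2.01, 2.45 and 2.0 CPM in Cinnamon bark cells, against 25.3, 24.7 and 21.3 CPM in vehicle cells. MT2A, the most widely expressed human form, had 137, 146 and 154 CPM in Cinnamon bark cells, against 532, 456 and 457 CPM in vehicle cells. MT1X had 6.80, 6.90 and 8.47 CPM in Cinnamon bark cells, against 20.6, 19.5 and 19.1 CPM in vehicle cells. In all 3 genes each extract library was below each vehicle library by more than 2-fold. The changes were -3.47 ± 0.11 (11.0-fold lower, adjusted p = 2.7e-13), -1.73 ± 0.06 (3.31-fold lower) and -1.42 ± 0.09 (2.67-fold lower). The other 7 of the 10 metallothionein genes did not pass the filter on low counts. Of these MT1F had 3, 2 and 1 counts in Cinnamon bark cells and 14, 16 and 6 counts in vehicle cells, and MT1B and MT1H had none. The MT1 genes are close copies and may share reads. All 3 tested genes were also called lower against 20 µg/mL (-3.23, -1.40 and -1.31 for MT1E, MT2A and MT1X) and against the other extracts (-2.82, -1.45 and -0.92).

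Promoters of 2 of the fallen metallothioneins are shown for their repeated metal response elements, the sites of MTF1. The search used TGCACNC or TGCGCNC on both strands, and capitals mark the matches, 7 in MT2A (chr16:56608334-56608583, plus strand) and 4 in MT1X (chr16:56682308-56682435, plus strand), both from RefSeq GRCh38.p14.
MT2A: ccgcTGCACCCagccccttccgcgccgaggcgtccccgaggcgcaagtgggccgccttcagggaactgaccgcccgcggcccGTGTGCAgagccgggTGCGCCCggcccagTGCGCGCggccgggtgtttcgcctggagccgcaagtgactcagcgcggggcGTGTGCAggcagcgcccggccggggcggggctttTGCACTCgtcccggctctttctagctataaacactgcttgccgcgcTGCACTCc
MT1X: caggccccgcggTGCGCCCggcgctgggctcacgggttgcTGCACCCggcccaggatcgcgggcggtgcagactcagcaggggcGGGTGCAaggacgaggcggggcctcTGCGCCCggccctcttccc
A match was present in 24.8% of all promoters and in all 4 metallothionein promoters with an entry, among them MT1B and MT1H, which had no count.

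Zinc transporters moved in both directions. SLC30A1, the plasma membrane zinc exporter and a target of MTF1, had 36.4, 39.0 and 40.1 CPM in Cinnamon bark cells, against 62.2, 71.5 and 65.2 CPM in vehicle cells. The groups stood apart (-0.78 ± 0.06), with -0.84 against 20 µg/mL and -0.82 against the other extracts. SLC39A10, a zinc importer, had 89.8, 87.2 and 95.6 CPM in Cinnamon bark cells, against 40.4, 41.9 and 39.9 CPM in vehicle cells (1.16 ± 0.05). MTF1 itself had 33.4, 30.9 and 29 CPM in Cinnamon bark cells and 34.3, 32.9 and 34.9 CPM in vehicle cells, and was not called (-0.13 ± 0.06, adjusted p = 0.12). Of 14 importers and redistributing transporters 3 were called higher, 1 was lower and 10 were not called, with a median of 0.07. The shares over all genes tested were 20.2% higher and 18.6% lower. Of the 3 higher members SLC39A10 kept its call under all 14 settings, whereas SLC39A6 and SLC39A9 lost theirs under 2 and 6, and without vehicle replicate 3 the count was 1. Of 7 copper genes 5 were called higher, led by SLC31A2 (0.73 ± 0.11).

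Cholesterol synthesis rose along the pathway. INSIG1, the sterol-responsive brake that holds SREBP in the endoplasmic reticulum, had 514, 586 and 577 CPM in Cinnamon bark cells, against 164, 166 and 158 CPM in vehicle cells (1.78 ± 0.05, 3.44-fold). Replicate 1 was the lowest of the extract libraries and still stood over 3 times above the vehicle. Of 20 synthesis enzymes 19 were called higher and none lower, with a median of 0.54 (TM7SF2, near 1 CPM, was not called). MSMO1 and FDFT1, which makes squalene, rose most, by 0.98 ± 0.05 and 0.96 ± 0.05. SREBF2, the factor of the sterol branch, rose by 0.56 ± 0.05, and SREBF1 was lower (-0.19 ± 0.06), a call lost under 3 of 14 settings. Against 20 µg/mL 18 of the 20 enzymes were called higher and against the other extracts 19.

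Sterol import genes rose, and lipid storage genes rose in part. Of 10 uptake and transport genes tested 9 were called higher, among them NPC1, which moves cholesterol out of lysosomes (0.76 ± 0.04). The exporter ABCA1 was not called (-0.12 ± 0.05). MYLIP, a sterol-induced ubiquitin ligase counted among the sensing and control genes, was lower (-0.53 ± 0.10). SCD, the desaturase that makes oleate, had 437, 488 and 473 CPM in Cinnamon bark cells, against 262, 258 and 265 CPM in vehicle cells (0.83 ± 0.05), and 10 of 12 fatty acid synthesis genes were called higher and 1 lower (ACLY, -0.11 ± 0.04, a call lost under 9 of 14 settings). Of 8 lipid droplet and lipid breakdown genes 4 were called higher and none lower, with a median of 0.22. PLIN2, which coats lipid droplets, had 192, 190 and 186 CPM in Cinnamon bark cells, against 60.7, 59.7 and 57.8 CPM in vehicle cells (1.67 ± 0.04). Both groups of PLIN2 were tight and far apart.

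**Figure D3:**
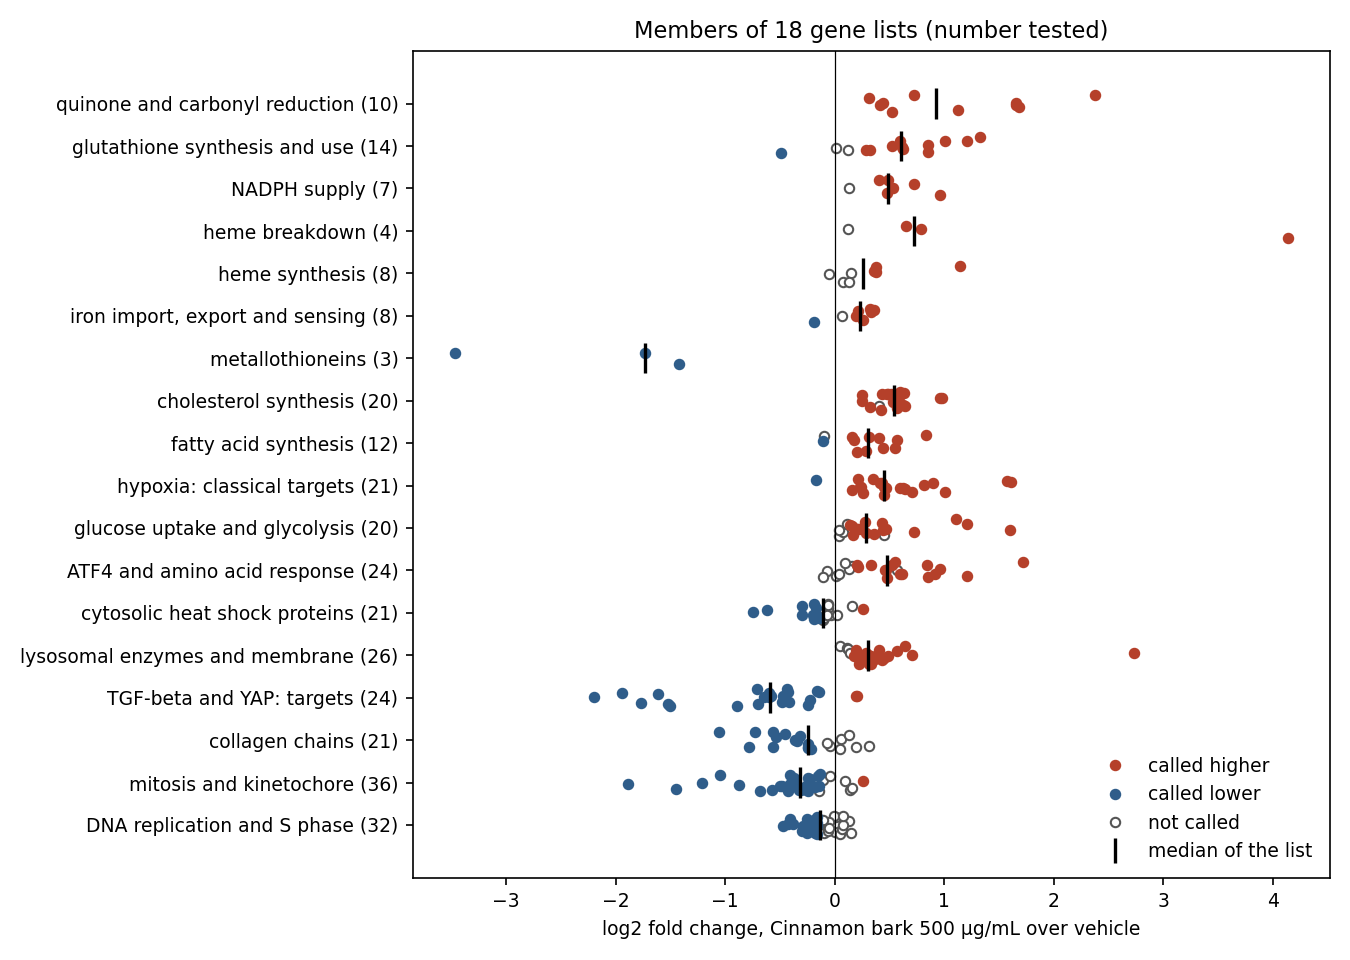
Log2 fold change of Cinnamon bark 500 µg/mL over vehicle (horizontal axis) for the tested members of 18 gene lists, 1 point per gene, filled where called, with a bar at each list's median. All 10 quinone and carbonyl enzymes and 19 of 20 cholesterol synthesis genes are called higher, all 3 metallothioneins and 22 of 24 TGF-beta and YAP targets are called lower.

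Genes of the hypoxia response rose, with 20 of 21 classical targets called higher, 1 lower and a median of 0.45. Against 20 µg/mL 14 were called higher and against the other extracts 20, with none lower in either. NDRG1, a stress-responsive differentiation gene, had 149, 166 and 149 CPM in Cinnamon bark cells, against 52.1, 48.9 and 51.4 CPM in vehicle cells (1.61 ± 0.05). ANGPTL4, a secreted inhibitor of lipoprotein lipase, had 64.9, 62.7 and 63.4 CPM in Cinnamon bark cells, against 21.0, 21.4 and 22.1 CPM in vehicle cells (1.57 ± 0.06). ADM, MXI1, MIR210HG and BNIP3 followed at 1.01 ± 0.08, 0.90 ± 0.07, 0.82 ± 0.12 and 0.71 ± 0.05, all without overlap. LOX, a collagen cross-linking enzyme, was the lower member (-0.17 ± 0.05), a call lost under 2 of 14 settings. HIF1A, the oxygen-regulated factor, had 994, 1120 and 1157 CPM in Cinnamon bark cells and 1041, 1020 and 1020 CPM in vehicle cells, overlapping groups that were not called (0.09 ± 0.05). Its paralog EPAS1 rose by 0.35 ± 0.04 and the oxygen sensor EGLN3 by 0.79 ± 0.13. Of 20 glucose uptake and glycolysis genes 15 were called higher and none lower, with a median of 0.28, and 17 and 20 were called higher against 20 µg/mL and the other extracts. The largest were ALDOC (1.6 ± 0.09), ENO2 (1.21 ± 0.05) and the transporter SLC2A3 (1.11 ± 0.05).

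TXNIP, an arrestin that restrains glucose uptake and binds thioredoxin, had 41.5, 42.1 and 38.7 CPM in Cinnamon bark cells, against 9.71, 10.1 and 8.55 CPM in vehicle cells (2.11 ± 0.07, 4.31-fold). Its relative ARRDC4 had 13.8, 12.3 and 13.0 CPM in Cinnamon bark cells, against 5.55, 6.07 and 7.20 CPM in vehicle cells (1.06 ± 0.10). Neither gene's groups overlapped. Both genes are targets of the glucose-sensing factors MLXIP and MLX, which were called at -0.17 ± 0.05 and 0.17 ± 0.05 and lost those calls under 6 and 2 of 14 settings. The carbohydrate response element of TXNIP is shown, a pair of CACGNG boxes 5 bases apart in capitals, at chr1:145996639-145996679 (minus strand, RefSeq GRCh38.p14).
TXNIP: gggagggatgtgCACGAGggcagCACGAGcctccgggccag
Such a pair was found in 0.0456% of promoters and in none of the other 5 genes of its list.

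All 7 aryl hydrocarbon receptor (AHR) targets tested were called higher, with a median of 0.69, and 5 were called higher against 20 µg/mL and 5 against the other extracts. This receptor binds planar aromatic compounds and drives xenobiotic-oxidising enzymes. CYP1B1 had 170, 185 and 192 CPM in Cinnamon bark cells, against 116, 112 and 111 CPM in vehicle cells (0.69 ± 0.05). CYP1A1, the classical target, had 1.78, 1.54 and 1.38 CPM in Cinnamon bark cells and 0.756, 0.873 and 1.12 CPM in vehicle cells (0.78 ± 0.23). Its groups did not overlap, but its call was lost under 2 of 14 settings, and it was not called against 20 µg/mL (0.41). TIPARP, which dampens the receptor, rose by 0.75 ± 0.07 and AHR itself by 0.31 ± 0.08. NQO1 is also among the 7 targets.

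Genes of the ATF4 amino acid response rose, while ATF4 itself was not called. Of 24 ATF4 genes 16 were called higher and none lower, with a median of 0.47 (1 lower without Cinnamon bark replicate 1 or 3). Against 20 µg/mL 17 were called higher and against the other extracts 23. GDF15, a secreted stress signal, had 13.3, 13.6 and 13.1 CPM in Cinnamon bark cells, against 4.23, 3.65 and 4.20 CPM in vehicle cells (1.72 ± 0.10). TRIB3 and DDIT3, a pair of stress regulators downstream of ATF4, rose by 0.96 ± 0.06 and 0.92 ± 0.07 with no overlap between groups. ATF4 had 122, 138 and 136 CPM in Cinnamon bark cells and 133, 133 and 126 CPM in vehicle cells (0.01 ± 0.05, not called). Among 20 endoplasmic reticulum chaperone and unfolded protein genes 2 were called higher and 3 lower, with HSPA5, the main chaperone, at -0.01 ± 0.04. Without Cinnamon bark replicate 1 these counts were 5 and 5, and without Cinnamon bark replicate 2 or 3 or vehicle replicate 1 or 2 the count called higher was 1. Against 20 µg/mL 3 were called higher and 1 lower, and against the other extracts 11 and 1. The shares over all genes tested were 20.2% higher and 18.6% lower against vehicle. They were 13.8% and 15.1% against 20 µg/mL, and 19.9% and 20.6% against the other extracts. Of 21 cytosolic heat shock genes 10 were called lower and 1 higher, with a median of -0.11, and 4 were called lower against 20 µg/mL and 9 against the other extracts. HSPB1, a small heat shock protein, had 221, 242 and 240 CPM in Cinnamon bark cells and 357, 354 and 368 CPM in vehicle cells (-0.62 ± 0.05). The count of 10 fell to 6 when vehicle replicate 2 or 3 was left out or when all groups were fitted together.

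Of 26 lysosomal genes 22 were called higher and none lower, with a median of 0.31, and 21 were called higher against 20 µg/mL and 25 against the other extracts. The largest change was in ATP6V0D2, a proton pump subunit at a low level, with 1.11, 1.29 and 1.34 CPM in Cinnamon bark cells and 0.227, 0.0794 and 0.240 CPM in vehicle cells (2.73 ± 0.35). CTSL, a lysosomal protease, had 260, 282 and 263 CPM in Cinnamon bark cells, against 171, 166 and 156 CPM in vehicle cells (0.71 ± 0.05). NEU1, GLA and MCOLN1, a lysosomal calcium channel, rose by 0.64 ± 0.04, 0.57 ± 0.05 and 0.49 ± 0.06. TFEB, the factor of the lysosomal programme, was not called (0.10 ± 0.09), and 6 of 13 autophagy genes were called higher, led by SQSTM1 and MAP1LC3B (0.47 ± 0.05). The CLEAR element, the palindrome bound by TFEB, is shown in capitals in the MCOLN1 promoter, where TCACGTGA occurs at 2 places (chr19:7522570-7522623, plus strand, RefSeq GRCh38.p14).
MCOLN1: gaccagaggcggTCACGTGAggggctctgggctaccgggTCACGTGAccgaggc
These letters were in 0.854% of promoters, in 5 of 14 lysosomal promoters with an entry and in 0 of 13 autophagy promoters.

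TGF-beta and YAP targets fell, 22 of 24 called lower and 2 higher (AJUBA and F3), with a median of -0.59. The AJUBA call was lost under 6 of 14 settings. TGF-beta acts through SMAD proteins, and YAP, a coactivator governed by cell shape and the Hippo kinases, acts with TEAD factors; many of their targets are shared. CCN2, a matricellular protein, had 50.9, 54.1 and 59.9 CPM in Cinnamon bark cells, against 186, 191 and 184 CPM in vehicle cells. ANKRD1 had 2.64, 2.54 and 3.42 CPM in Cinnamon bark cells, against 13.1, 13.1 and 13.2 CPM in vehicle cells. Both were over 3-fold lower in each extract library, with changes of -1.77 ± 0.05 and -2.20 ± 0.11. EDN1, a vasoconstrictor peptide, fell by 1.94 ± 0.21 on the log2 scale at a level near 2 CPM. ID1, ID2 and ID3, SMAD-driven inhibitors of differentiation factors, were lower too, at -1.50 ± 0.04, -1.52 ± 0.08 and -1.61 ± 0.05. Against 20 µg/mL 18 of the 24 were called lower with a smaller median of -0.39, and CCN2 was -1.07 there. Part of the separation thus lay between vehicle and 20 µg/mL, where the extract and the sample code set cannot be told apart. Against the other extracts 17 were called lower and none higher, with a median of -0.41.

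Upstream of these targets, 7 of 10 ligand and latency genes were called lower and 1 higher. TGFB1 had 394, 449 and 415 CPM in Cinnamon bark cells and 513, 495 and 514 CPM in vehicle cells (-0.28 ± 0.05) and was not called against 20 µg/mL (-0.15). Of 12 receptors and SMADs 7 were called lower and 3 higher. The feedback inhibitors SMAD6 (-1.14 ± 0.10), SKIL (-1.11 ± 0.06) and SMAD7 (-0.69 ± 0.07), themselves induced by the pathway, were lower, and the receptor TGFBR1 was higher (0.31 ± 0.05). YAP1 and WWTR1 were not called (0.08 ± 0.04 and -0.13 ± 0.06), while TEAD1 had 150, 158 and 167 CPM in Cinnamon bark cells and 222, 210 and 222 CPM in vehicle cells (-0.46 ± 0.05). Stretches of the CCN2 (chr6:131951450-131951553) and ANKRD1 (chr10:90921198-90921319) promoters, both on the minus strand of RefSeq GRCh38.p14, are shown for their TEAD sites, searched as CATTCC on both strands, with 3 and 2 matches in capitals.
CCN2: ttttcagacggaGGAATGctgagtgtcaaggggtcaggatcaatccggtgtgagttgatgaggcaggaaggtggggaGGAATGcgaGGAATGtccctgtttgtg
ANKRD1: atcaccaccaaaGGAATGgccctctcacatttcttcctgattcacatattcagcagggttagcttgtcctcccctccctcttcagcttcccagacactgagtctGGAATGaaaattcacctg
These letters were in 11.9% of promoters and in 3 of 17 targets with an entry.

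Most collagen chains fell, and matrix proteases were mixed. Of 21 collagen chains 14 were called lower and none higher, with a median of -0.24. Against 20 µg/mL 12 were lower and 1 higher, and against the other extracts 13 were lower and 2 higher. COL5A1 had 1418, 1301 and 1275 CPM in Cinnamon bark cells, against 2266, 2219 and 2352 CPM in vehicle cells (-0.78 ± 0.04). COL1A1, the main fibrillar chain, had 3016, 2676 and 2551 CPM in Cinnamon bark cells, against 4044, 4077 and 4051 CPM in vehicle cells (-0.56 ± 0.05). Neither chain's groups overlapped, and COL13A1 and COL8A1 fell by 1.06 ± 0.08 and 0.73 ± 0.04 on the log2 scale. The collagen chains are long transcripts, with a median summed exon length of 9269 bases, and the part of length in their change was not tested. Of 22 matrix proteases and inhibitors 2 were called higher and 6 lower, with a median of 0.01. Among all genes tested 20.2% were called higher and 18.6% lower. PLAU, the urokinase protease, had 64.1, 57.2 and 58.3 CPM in Cinnamon bark cells, against 135, 134 and 134 CPM in vehicle cells (-1.16 ± 0.05). PLAT and TIMP3 were also lower (-0.62 ± 0.05 and -0.50 ± 0.05), and MMP1 and MMP14 were higher (0.44 ± 0.05 and 0.41 ± 0.04). The fibroblast and smooth muscle markers summed to 5476, 4929 and 4763 CPM in Cinnamon bark cells, against 6991, 7033 and 6975 CPM in vehicle cells, with 8 of 12 called lower. In bulk RNA fewer cells of a kind and less RNA per cell cannot be told apart.

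The keratins KRT7 and KRT18 and several other genes outside these lists were also lower, SAMD11 and CYP24A1 by more than the keratins. KRT7 had 232, 192 and 193 CPM in Cinnamon bark cells, against 643, 612 and 657 CPM in vehicle cells (-1.63 ± 0.07). KRT18 had 78.8, 72.3 and 73.5 CPM in Cinnamon bark cells, against 221, 224 and 220 CPM in vehicle cells (-1.57 ± 0.05). Each extract library was below 40% of each vehicle library in both. Of 8 epithelial markers 4 were tested, and 2 of these were called lower, KRT18 and KRT8, while KRT14 was not called. KRT8 fell by less, with changes from -0.69 to -0.66 when 1 library was left out. The epithelial markers CDH1 and EPCAM had at most 3 counts in any library. SAMD11, a nuclear protein with a SAM domain, had 18.7, 15.9 and 17.1 CPM in Cinnamon bark cells, against 76.3, 81.1 and 80.2 CPM in vehicle cells (-2.20 ± 0.06). CYP24A1, the vitamin D-degrading hydroxylase, had 3.01, 2.87 and 3.96 CPM in Cinnamon bark cells, against 14, 13.2 and 14 CPM in vehicle cells (-2.07 ± 0.11). Among the remaining leading genes the potassium channel KCNA7 and the arginine deiminase PADI2 were lower by 1.88 ± 0.20 and 1.83 ± 0.15 on the log2 scale. On the upper side stood TM4SF19 (2.71 ± 0.17), the calcium pump ATP2A3 (2.34 ± 0.15), NMRAL2P (2.20 ± 0.14) and PSG1 (1.71 ± 0.14), the last one of a family of near-identical genes.

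Mitotic genes were lower, most of all the longest ones. Of 36 mitosis and kinetochore genes 29 were called lower and 1 higher (MAD2L1, a call lost under 2 of 14 settings), with a median of -0.32. MKI67, the proliferation marker, had 126, 138 and 94.5 CPM in Cinnamon bark cells, against 344, 312 and 322 CPM in vehicle cells (-1.45 ± 0.15, adjusted p = 0.0019). CENPE, a kinetochore motor, had 18.9, 24.2 and 9.31 CPM in Cinnamon bark cells, against 67.4, 64.4 and 62.4 CPM in vehicle cells (-1.89 ± 0.33, adjusted p = 0.014). Replicate 3 was the lowest extract library in both, and in CENPF, and the groups did not overlap. The CENPE call was lost with the replicate number as a block and without any 1 of the vehicle libraries, where its change ran from -1.91 to -1.86. Without 1 of the Cinnamon bark libraries it was called, at -2.19 without replicate 2 and -1.59 without replicate 3. SMC4, a condensin subunit, had 66.8, 70.9 and 67.2 CPM in Cinnamon bark cells, against 146, 138 and 140 CPM in vehicle cells (-1.05 ± 0.05). CDK1, the kinase that drives mitosis, was not called (0.09 ± 0.05), nor was KIF2C (-0.04 ± 0.05). Against 20 µg/mL 17 of the 36 were called lower and 2 higher, with a median of -0.16, and against the other extracts 23 were lower and 1 higher, with a median of -0.18.

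Gene length moved with this result. Summed exon length is 9444 bases for CENPE, 12807 for MKI67 and 8457 for SMC4, against a median of 4624 for the list. Over 11228 genes the log2 fold change and the summed exon length had a Spearman correlation of -0.23 across genes, which are not independent replicates. The median change was 0.10 among genes up to 2000 bases and -0.06 above 8000 bases. Genes called lower made up 11.6% of the shortest class and 33.7% of the longest, and genes called higher made up 34.2% and 16.2%. The part of length in the fall of the mitotic genes was not tested. Falls near that of MKI67 also occurred outside the mitosis list. With 1 library left out, the change ran from -1.59 to -1.24 in GOLGA4, -1.57 to -1.24 in ANKRD12 and -1.45 to -1.15 in EIF5B. The GOLGA4 call was lost with the replicate number as a block. GC content and the change were nearly unrelated across genes (0.02).

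**Figure D4:**
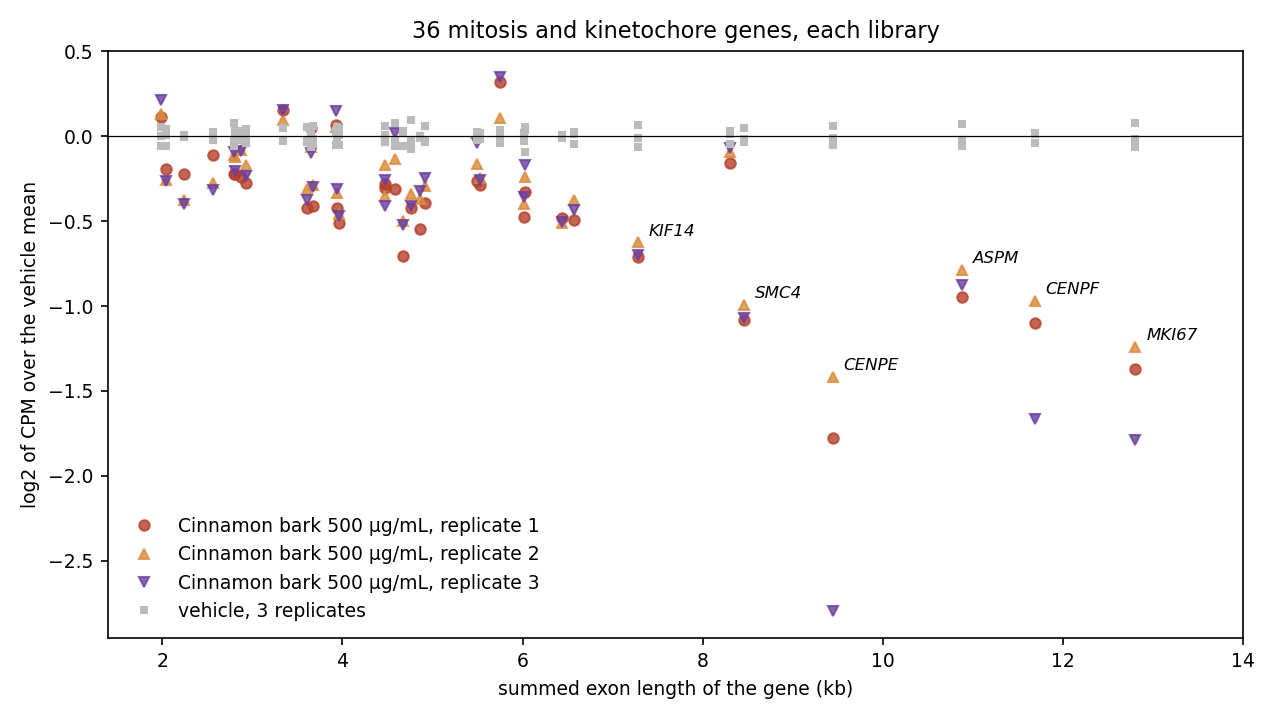
Log2 of each library's CPM over the vehicle mean (vertical axis) against summed exon length in kb (horizontal axis) for 36 mitosis and kinetochore genes, with the 3 Cinnamon bark 500 µg/mL libraries in colour and the 3 vehicle libraries in grey. The longest genes lie lowest, and replicate 3 lies below the other extract libraries for CENPE, CENPF and MKI67.

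Replication genes were lower in part, and the D cyclin group was mixed. Of 32 DNA replication genes 16 were called lower and none higher, with a median of -0.13, led by CCNE2 (-0.47 ± 0.09) and POLA1 (-0.41 ± 0.06). That count was 8 when all groups were fitted together. CCND1, the D cyclin that starts the cycle, had 123, 126 and 121 CPM in Cinnamon bark cells, against 205, 210 and 211 CPM in vehicle cells (-0.76 ± 0.04). CDKN1A, the CDK inhibitor p21, had 41.1, 40.8 and 38.8 CPM in Cinnamon bark cells, against 21.2, 20.9 and 21.1 CPM in vehicle cells (0.93 ± 0.06). Both genes had tight, separate groups. CDK6 was lower (-0.67 ± 0.05) and CDKN1B higher (0.31 ± 0.06). Of the 16 D cyclins, CDKs and inhibitors tested 3 were called higher, 5 lower and 8 were not called, with a median of -0.01. Shares over all genes tested were 20.2% higher and 18.6% lower. Of 20 p53 targets, among which CDKN1A and GDF15 are counted, 7 were called higher and 2 lower (5 lower without Cinnamon bark replicate 1, 1 lower without Cinnamon bark replicate 2 or any 1 vehicle library), and MDM2, the direct feedback target of p53, was not called (0.04 ± 0.06). Among 18 apoptosis regulators 7 were called higher and 2 lower, and the 7 became 3 without Cinnamon bark replicate 3, 2 without vehicle replicate 1 or 3, 4 without vehicle replicate 2, 3 in DESeq2 and 2 with all groups fitted together. BAX, which permeabilises mitochondria, rose by 0.48 ± 0.07 and BCL2L1, which protects them, fell by 0.23 ± 0.05 on the log2 scale.

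Inflammatory genes split by member. IL1A had 2.90, 3.57 and 3.42 CPM in Cinnamon bark cells, against 0.491, 1.15 and 0.879 CPM in vehicle cells (1.97 ± 0.23), and IL1B had 9.51, 11.6 and 11.9 CPM in Cinnamon bark cells, against 5.06, 4.41 and 4.76 CPM in vehicle cells (1.21 ± 0.11). CCL2, the monocyte chemokine, had 9.95, 10.8 and 12.4 CPM in Cinnamon bark cells, against 36.9, 36.9 and 35.8 CPM in vehicle cells (-1.73 ± 0.08). Each of the 3 had separate groups. LIF and IL11 were lower (-0.54 ± 0.06 and -0.50 ± 0.07), and CXCL8 was lower than vehicle (-0.40 ± 0.11) but higher than at 20 µg/mL (0.33). Of 14 cytokines tested 3 were called higher and 4 lower. Over all genes tested 20.2% were called higher and 18.6% lower, and the counts of these inflammatory lists against vehicle stand beside those shares. Against 20 µg/mL 4 of 13 cytokines were called higher and 3 lower (13.8% and 15.1% over all genes). Against the other extracts 3 of 14 were higher and 7 lower, with a median of -0.42 (19.9% and 20.6% over all genes). The 3 immune cell markers tested, of 8 listed, summed to 203, 233 and 207 CPM in Cinnamon bark cells, against 175, 174 and 163 CPM in vehicle cells. Another 3 of the 8 had no count, and the part of immune markers in these changes was not tested. Nearly all of that sum was CD68, a lysosomal protein also found outside immune cells, with 196, 227 and 201 CPM in Cinnamon bark cells, against 164, 162 and 152 CPM in vehicle cells (0.38 ± 0.05). PTPRC, the pan-leukocyte marker, went the other way, with 4.01, 3.95 and 4.30 CPM in Cinnamon bark cells, against 8.05, 8.61 and 8.51 CPM in vehicle cells (-1.04 ± 0.10), and CSF1R was not called (-0.43 ± 0.17). PTGS2, the inducible cyclooxygenase, had 30.3, 31.0 and 40.3 CPM in Cinnamon bark cells, against 84.3, 86.3 and 81.4 CPM in vehicle cells (-1.31 ± 0.09). Of 19 NF-kB genes 5 were called each way (3 lower without vehicle replicate 3), with NFKB2 (0.60 ± 0.06) and SOD2 (0.66 ± 0.05) higher, TNFAIP2 (-0.76 ± 0.08) lower, and RELA and NFKBIA not called (-0.02 ± 0.04 and 0.00 ± 0.06). The split of the NF-kB genes was less even elsewhere, with 9 called higher and 4 lower against 20 µg/mL. Against the other extracts 4 NF-kB genes were called higher and 7 lower. Of 25 interferon-responsive genes 8 were called higher and 5 lower, and the 8 became 5 without vehicle replicate 2 and 3 with all groups fitted together.

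The early growth factor genes were also mixed. Of 20 immediate early genes 7 were called higher and 5 lower, with EGR3 lowest (-1.04 ± 0.11) and ATF3 highest (0.61 ± 0.13), while FOS and MYC were not called (-0.16 ± 0.19 and 0.08 ± 0.05). Across all genes tested the shares were 20.2% higher and 18.6% lower. Among 14 ERK feedback genes 5 were called higher (3 without Cinnamon bark replicate 2 or vehicle replicate 1 or 3) and 3 lower; SPRY4 fell by 0.72 ± 0.07 and SPRY2 rose by 0.48 ± 0.06. EGFR was not called (0.05 ± 0.05). Its ligand HBEGF was lower (-0.68 ± 0.06) and its inhibitor LRIG1 higher (0.59 ± 0.06).

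Levels over the Cinnamon bark doses are given for all 4 groups on a common scale, as a description. HMOX1 averaged 79.0 ± 2.21 CPM in vehicle cells and 81.8 ± 4.30, 179 ± 14.4 and 1400 ± 63.7 CPM at 20, 100 and 500 µg/mL (SD, n = 3 each). INSIG1 averaged 164 ± 4.04 CPM in vehicle cells and 155 ± 0.895, 188 ± 10.6 and 566 ± 41.0 CPM over the same doses. For both, the larger step lay between 100 and 500 µg/mL, although HMOX1 at 100 µg/mL was already above every vehicle library. MT1E averaged 24.0 ± 2.14 CPM in vehicle cells and 20.4 ± 2.52, 8.99 ± 0.503 and 2.18 ± 0.268 CPM at the 3 doses, falling at each of the upper steps. CCN2 averaged 189 ± 3.32 CPM in vehicle cells and 116 ± 8.16, 108 ± 13.5 and 55.6 ± 4.67 CPM at the 3 doses. Part of its distance from vehicle was thus present at 20 µg/mL. Between vehicle and 20 µg/mL the extract and the sample code set cannot be told apart. DHRS3, a retinaldehyde reductase, averaged 27.6 ± 0.912 CPM in vehicle cells and 16.5 ± 1.4, 7.18 ± 0.565 and 8.15 ± 0.182 CPM, with no further fall from 100 to 500 µg/mL. MKI67 averaged 329 ± 16.1 CPM in vehicle cells and 286 ± 26.7, 260 ± 18.5 and 121 ± 22.9 CPM at the 3 doses.

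**Figure D5:**
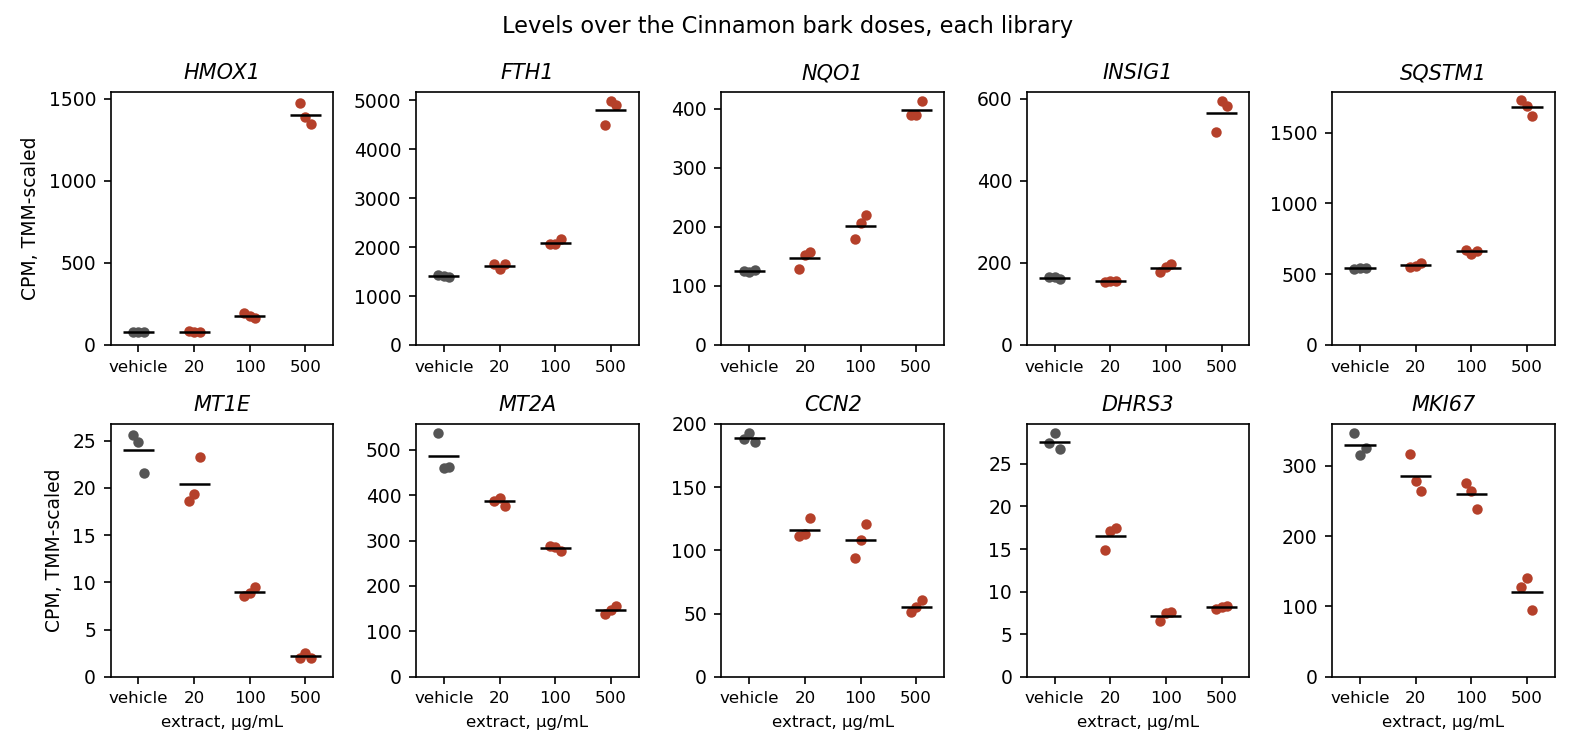
CPM in each library (points) and group means (bars) for 10 genes in vehicle cells and at 20, 100 and 500 µg/mL Cinnamon bark, 3 libraries per group, each panel with its own axis from 0. HMOX1, INSIG1 and SQSTM1 rise mainly at 500 µg/mL, MT1E and MT2A fall at 100 and again at 500 µg/mL, and DHRS3 is as low at 100 as at 500 µg/mL.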

How the data were processed

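RNA of SW1783 cells was sequenced as directional mRNA libraries with 100-base paired reads, per the labels' protocols. The authors deposited expected counts per gene; FastQC 0.11.9, Trim Galore 0.6.5, STAR 2.7.3a, RSEM 1.3.3 and the build hg38 (GRCh38) are named in the submitters' processing notes, with no annotation release stated. The table holds 60675 genes and 279 columns, of which 60 match the described samples and 219 were not used. The expected counts (90.67% of values already whole) were rounded and fitted with edgeR 4.0.16 in R 4.3.3: filterByExpr, TMM scaling, robust quasi-likelihood fit of the 6 libraries, Benjamini-Hochberg adjustment, calls under 0.05. Further fits, with the same steps, set the 3 libraries against Cinnamon bark at 20 µg/mL and against the equally weighted mean of 5 other extracts. SE is the absolute log2 fold change over the square root of F. Scripts were tested on simulated counts. DESeq2 1.42.0, other scalings and filters, all groups fitted together, a replicate block and leaving out each library were the alternatives, 14 settings for each comparison with vehicle.

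The members and the 58 gene lists were chosen with earlier results of these data known. Named were the 15 leading called genes in each direction (at least 5 CPM in the higher group, groups apart), up to 6 called members of each list with the largest change and at least 1 CPM, and any member of lists of sensors, factors, receptors, transporters, metallothioneins and pathway enzymes. Other members, named as exceptions to a list's direction or as its best known gene, were chosen after their values were seen. GOLGA4, ANKRD12 and EIF5B, outside the lists, were also picked in this way. Positions and exon lengths are from GENCODE v29 on GRCh38, and promoter sequences from RefSeq GRCh38.p14. Motif shares are over all 35116 promoter entries, while motif counts within a gene list use a single entry per gene.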

Additional observations from a re-analysis of the deposited data

How the results depend on the processing

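Against vehicle the count of 6094 calls became 3986 when all groups were fitted together with 1 shared spread, and 6265 when library 1 of Sagunja-tang at 20 µg/mL was left out of that fit; the cause was not tested. The other settings gave 4940 (DESeq2) to 6356 (no filter on low counts), and leaving out each library gave 4628 to 6832. Of 532 called genes of the lists and leading sets, 493 kept their call in DESeq2, 395 with all groups fitted together and 463 to 521 without 1 library, and none changed direction under any of the 14 settings. With library size alone in place of TMM, 60.5% of the calls were higher, against 52.1% with TMM. Leaving out each of the 6 libraries gave 3381 to 4297 calls against 20 µg/mL. Against the other extracts only the 3 Cinnamon bark libraries were left out in turn, which gave 5545 to 5915. Same-numbered libraries correlated in their deviations at -0.13, -0.15 and -0.06 against vehicle and 0.11, -0.06 and 0.17 against 20 µg/mL. These values show no clear pairing by replicate number but cannot exclude one. Cinnamon bark libraries of the same replicate number share the middle part of their sample code. The fit with the replicate block called 5994, 4698 and 6732 genes in the 3 comparisons. List counts that moved by over 1.5 times under the fit of all groups include DNA replication called lower (16, then 8), apoptosis regulators called higher (7, then 2), interferon response called higher (8, then 3), YAP factors called lower (4, then 1), nuclear respiratory subunits called higher (16, then 5), collagen modification and other matrix called lower (11, then 6), ribosome biogenesis called lower (12, then 7) and integrins called lower (6, then 3). Depth limited genes under about 1 CPM, 7 of the 10 metallothioneins among them.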

Other observations

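Nuclear respiratory subunits rose slightly. Of 30 nuclear subunits 16 were called higher and none lower, with a median of 0.18, led by NDUFA1, a complex I subunit with 68.3, 65.4 and 62.3 CPM in Cinnamon bark cells and 39.9, 43.0 and 34.3 CPM in vehicle cells (0.74 ± 0.07), and COX6C (0.59 ± 0.08). NDUFA1 and COX6C were not called against 20 µg/mL (0.44 and 0.37). Of the 30 subunits 9 were called higher against 20 µg/mL, and against the other extracts 10 higher and 1 lower. Their median summed exon length was 3310 bases, and the part of length in their change was not tested. Of 13 mitochondrial genes 1 was called, MT-ND3 (-0.37 ± 0.07), and the count called lower was 6 without Cinnamon bark replicate 2, 3 without replicate 1 and 3 with all groups fitted together. The 13 summed to 43235, 62181 and 56414 CPM in Cinnamon bark libraries, against 61164, 58451 and 58681 CPM in vehicle libraries, replicate 1 of the extract lying below every vehicle library. Of 18 ribosome biogenesis genes 12 were called lower and 2 higher (0 higher without vehicle replicate 2), with NOP58 (-0.49 ± 0.06), NCL (-0.41 ± 0.05) and UTP20 (-0.37 ± 0.05) lowest.

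Retinoid genes were lower in part. DHRS3 had 7.87, 8.10 and 8.18 CPM in Cinnamon bark cells and 27.2, 28.3 and 26.5 CPM in vehicle cells (-1.76 ± 0.07). STRA6, the retinol receptor of the cell surface, had 48.8, 46.5 and 47.8 CPM in Cinnamon bark cells and 92.8, 92.6 and 94.6 CPM in vehicle cells (-0.97 ± 0.05), and the retinoic acid receptors RARB and RARA were lower (-0.72 ± 0.08 and -0.57 ± 0.05), so that 5 of 11 tested retinoid genes were called lower and 2 higher. Of all genes tested against vehicle 18.6% were called lower and 20.2% higher. Both against 20 µg/mL and against the other extracts, 5 retinoid genes were called lower and 1 higher. TRPA1, the ion channel gated by cinnamaldehyde, had 0.669, 2.49 and 1.09 CPM in Cinnamon bark cells and 0.756, 0.238 and 0.720 CPM in vehicle cells and was not called (1.28 ± 0.61), and TRPV2 was higher (0.66 ± 0.17). Among nuclear RNA genes MALAT1 was higher (0.63 ± 0.04) and SFPQ lower (-0.60 ± 0.04). NEAT1 was higher than vehicle (0.37 ± 0.06) and lower than at 20 µg/mL (-0.56). IGFBP1 rose by 1.10 ± 0.08, and IGFBP5 and IGFBP3 were lower (-0.76 ± 0.06 and -0.58 ± 0.04).

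The genes that varied most among the Cinnamon bark libraries, by the SD of log2(CPM + 1), were RGPD5, RN7SL2, RN7SL1, FAM156B and EIF3CL. RGPD5 had 14, 1.33 and 4.30 CPM in Cinnamon bark cells and 2.0, 15.0 and 1.88 CPM in vehicle cells, and EIF3CL had 19.2, 56.0 and 39.0 CPM in Cinnamon bark cells and 58.5, 39.7 and 18.2 CPM in vehicle cells. Both belong to families of near-identical copies. RN7SL2, an RNA of the signal recognition particle, had 14.7, 4.20 and 25.1 CPM in Cinnamon bark cells and 3.55, 5.44 and 4.56 CPM in vehicle cells. CENPE, at 18.9, 24.2 and 9.31 CPM in Cinnamon bark cells, is among the 10 most variable.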
